A study of Mus musculus with 21 samples.

Results

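Growth hormone and STAT5 regulated genes were followed across the livers of adult male C57BL/6J mice, an inbred laboratory strain. The set holds 10 genes, taken by gene name from the non-control spots of the arrays, out of 35019 gene names. They are represented by 19 probes out of 55681. Of these, 6 are genes of the pathway itself (Ghr, Igf1, Igfals, Socs2, Cish and Bcl6), and 4 are genes at its output end in the liver (Mup20, Cyp4a12a, Cyp4a12b and Hao2). Both diet groups spent 3 weeks on a normal-fat diet and then 12 weeks on a high-fat diet, and were fasted for 2 to 4 hours before the liver was taken. HF-Q mice had 0.33% (w/w) quercetin, a plant flavonoid, in the high-fat diet, and HF mice had the same diet without it. The arrays held 10 HF-Q and 11 HF livers of the 24 mice studied, after the submitters left out 3 arrays. On each 2-colour Agilent array RNA of 1 liver (200 ng) was labelled with Cy5 and a pool made from all samples with Cy3, and dyes were not swapped. A log2 ratio in the text below sets a liver's signal against this common pool. Setting HF-Q against HF livers asks what quercetin in a high-fat diet does to these transcripts, and the values over single livers show which of the genes varied together.

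Growth hormone binds its receptor on hepatocytes and activates the kinase JAK2, which phosphorylates the transcription factor STAT5; STAT5 then enters the nucleus and binds palindromic sites near its target genes. In male mice the hormone is released from the pituitary in pulses, and hepatic STAT5 activity follows them. Cish and Socs2 are rapidly induced by STAT5 and act as feedback inhibitors of the receptor, whereas Bcl6, a transcriptional repressor that can occupy STAT5 sites, is lowered by growth hormone in mouse liver. The pulsatile male pattern also maintains a set of male-biased liver genes, among them the Cyp4a12 genes and many major urinary proteins. Hormone levels and the time since a pulse are not part of the data analysed here.

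The promoter windows of Cish and Bcl6 are shown first because these genes varied most between livers, and matches to the STAT5 core motif TTCNNNGAA are in capitals. The windows are RefSeq sequence on GRCm38.p6, read 5′ to 3′ on the gene's strand, from 250 bases before to 50 bases after an annotated start. The motif is its own reverse complement, so 1 search covers both strands, and no 2 matches overlapped in the windows shown. The Cish window lies at chr9:107296409-107296708 on the plus strand and the Bcl6 window at chr16:23981234-23981533 on the minus strand.
Cish: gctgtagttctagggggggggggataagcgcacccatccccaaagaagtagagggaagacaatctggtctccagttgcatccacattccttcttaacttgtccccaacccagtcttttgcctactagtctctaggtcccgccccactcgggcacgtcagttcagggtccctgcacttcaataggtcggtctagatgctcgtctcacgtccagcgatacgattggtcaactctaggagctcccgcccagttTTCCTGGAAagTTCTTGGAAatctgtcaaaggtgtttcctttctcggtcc
Bcl6: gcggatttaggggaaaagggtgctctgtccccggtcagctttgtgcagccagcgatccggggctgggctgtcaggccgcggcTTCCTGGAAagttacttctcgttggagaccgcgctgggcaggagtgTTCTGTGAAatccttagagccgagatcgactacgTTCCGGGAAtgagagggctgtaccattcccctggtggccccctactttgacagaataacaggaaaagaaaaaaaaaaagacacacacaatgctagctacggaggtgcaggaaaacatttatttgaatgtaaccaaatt

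The Cish window held 2 matches and the Bcl6 window 3. The matches of Bcl6 lay 168, 122 and 88 bases before the start. A second Bcl6 window held 1 match, and the window printed was picked because it held more. Of the Igfals windows, 2 held 1 match each. The windows of Ghr, Igf1 and Hao2 held none of these letters. In all, 5 of 10 windows of 6 of these genes held the motif. Of all 32851 promoter windows in the table, 8.30% held it, 0.457% held 2 or more matches and 0.0335% held 3 or more. Since the printed Bcl6 window was picked for its matches, the last share is no fair measure of it. A match describes the letters only, and binding was not analysed here.

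Probes of 5 of the genes are shown next to give what the arrays recognise. Those of Igfals, Cyp4a12a and Cyp4a12b stand for their genes, whereas those of Socs2 and Mup20 are further probes, dimmer than the one that stands for the gene. The probes of Igfals (chr17:25018251-25018310), Socs2 (chr10:94875468-94875527) and Mup20 (chr4:61713671-61713730) are given whole, and those of Cyp4a12a (chr4:115005258-115005317) and Cyp4a12b (chr4:115111580-115111639) by their first 30 of 60 bases, all on mouse build NCBI37 (mm9) as the array files place them. The Cyp4a12a probe is annotated in the array files to transcripts of both Cyp4a12 genes. Whether a probe lies in coding sequence or an untranslated region was not assigned here.
Igfals: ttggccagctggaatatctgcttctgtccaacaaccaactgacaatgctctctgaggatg
Socs2: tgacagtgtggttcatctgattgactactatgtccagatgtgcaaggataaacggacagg
Mup20: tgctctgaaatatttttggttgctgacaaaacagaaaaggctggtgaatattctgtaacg
Cyp4a12a: atgcatatctgaaagagccaattttcaacc
Cyp4a12b: cctttcagcttacatttaagagtcttgcca

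The arrays lay on 3 slides, and slides 1, 2 and 3 carried 4, 2 and 4 HF-Q livers against 3, 4 and 4 HF livers. The share of probes whose Cy5 signal exceeded background clearly was 44.2% to 51.3%, and 19718 genes were tested. Of the 19 probes of the 10 genes, 18 passed the filter on dim signal. The exception was 1 of the 4 Socs2 probes, which exceeded background on 0 arrays. Of the probes standing for a gene, those of 9 genes were well above background on all 21 arrays and that of Hao2 on 13. All 6 hepatocyte markers were measured on all 21 arrays. A liver with fewer cells of a type and a liver with less RNA per cell cannot be told apart in these bulk samples.

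No gene of the set passed the threshold in HF-Q against HF livers (limma, Benjamini-Hochberg adjusted p of 0.740 or above for all 10). Neither did any of the 19718 genes (lowest adjusted p = 0.382). An unadjusted p under 0.05 was reached by 2 of the 10 genes, Mup20 on the higher side and Hao2 on the lower side. Hao2 passed the filter on dim signal only through the HF livers, the group in which it was higher, so its p is a description and supports nothing. Of all genes tested, 5.93% (1169) had an unadjusted p under 0.05, 3.02% on the higher side and 2.91% on the lower side. The median log2 fold change over all genes was -0.0043.

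Ghr, the growth hormone receptor, hardly varied between livers. Its lowest, median and highest log2 ratios were -0.44, 0.017 and 0.13 in HF-Q livers and -0.029, 0.025 and 0.13 in HF livers. The groups overlapped, and the lowest value was that of HF-Q replicate 7. The log2 fold change of Ghr was -0.080 ± 0.051 (SE), with a 95% interval of -0.19 to 0.028 (limma, adjusted p = 0.933), and it was -0.035 without that liver. A second Ghr probe differed by -0.068 ± 0.055, and its values correlated with those of the first at r = 0.54 over the livers.

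Igf1, the main circulating mediator of growth hormone, had one of the narrowest spreads of the set. Its log2 ratio averaged -0.0058 ± 0.097 in HF-Q livers and -0.017 ± 0.072 in HF livers (SD). The difference was 0.011 ± 0.040 (SE), with a 95% interval of -0.073 to 0.095 (limma, adjusted p = 0.999). All 5 Igf1 probes were measured, and their differences lay between 0.0072 and 0.072. Only 1 of the other 4 followed the brightest probe closely over the livers (r = 0.98), and the rest correlated with it at -0.016, 0.19 and 0.29. Statements on Igf1 over single livers below therefore hold for the brightest probe.

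Igfals encodes the acid-labile subunit, which binds IGF1 and its binding protein in plasma. Its lowest, median and highest log2 ratios were -0.34, -0.17 and 0.14 in HF-Q livers and -0.59, -0.17 and 0.17 in HF livers. The medians were alike and the HF livers covered the wider range. The difference was 0.036 ± 0.080 (SE), with a 95% interval of -0.13 to 0.20 (limma, adjusted p = 0.999).

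Cish, Bcl6 and Socs2 were far more variable than the rest. Within a diet group, the log2 ratio of Cish had a residual SD of 1.52, and 1 of 19718 genes had a larger one. Bcl6 followed with 1.23 and 7 genes above it, and Socs2 with 0.82 and 37 genes above it. The median residual SD over all genes was 0.13.

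Cish, an inhibitor of cytokine receptor signalling through STAT5, had a lowest, median and highest log2 ratio of -2.73, -0.010 and 1.64 in HF-Q livers and of -2.83, -1.42 and 1.30 in HF livers. The highest and lowest livers of all thus differed 22.1-fold, and the groups overlapped over nearly the whole range. HF-Q differed from HF livers by 0.58 ± 0.60 (log2, SE), with a 95% interval of -0.67 to 1.84 (limma, adjusted p = 0.976). Without HF-Q replicate 1 the difference was 0.36.

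Bcl6 had a lowest, median and highest log2 ratio of -2.63, -1.06 and 0.86 in HF-Q livers and of -2.26, -0.28 and 0.89 in HF livers. The overlap was again nearly complete. On the log2 scale the difference was -0.36 ± 0.48 (SE), with a 95% interval of -1.38 to 0.65 (limma, adjusted p = 0.989). With HF-Q replicate 10 left out it was -0.16, and with HF-Q replicate 7 left out -0.20.

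Socs2, which limits signalling from the growth hormone receptor, had a lowest, median and highest log2 ratio of -1.13, -0.20 and 1.35 in HF-Q livers and of -1.87, -0.10 and 0.78 in HF livers. The 3 highest values belonged to HF-Q replicates 1, 7 and 8, and the lowest to HF replicate 7. The log2 fold change was 0.22 ± 0.32 (SE), with a 95% interval of -0.46 to 0.89 (limma, adjusted p = 0.991). Leaving out HF-Q replicate 1 gave 0.062, and leaving out HF replicate 7 gave 0.053. The other 2 kept Socs2 probes gave 0.20 ± 0.30 and 0.24 ± 0.26 and followed the brightest at r = 0.995 and 0.98 over the livers, the second of them being the probe printed above. The intervals of Cish and Bcl6 include more than a doubling in 1 direction each, so a diet difference of that size could go undetected.

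**Figure D1:**
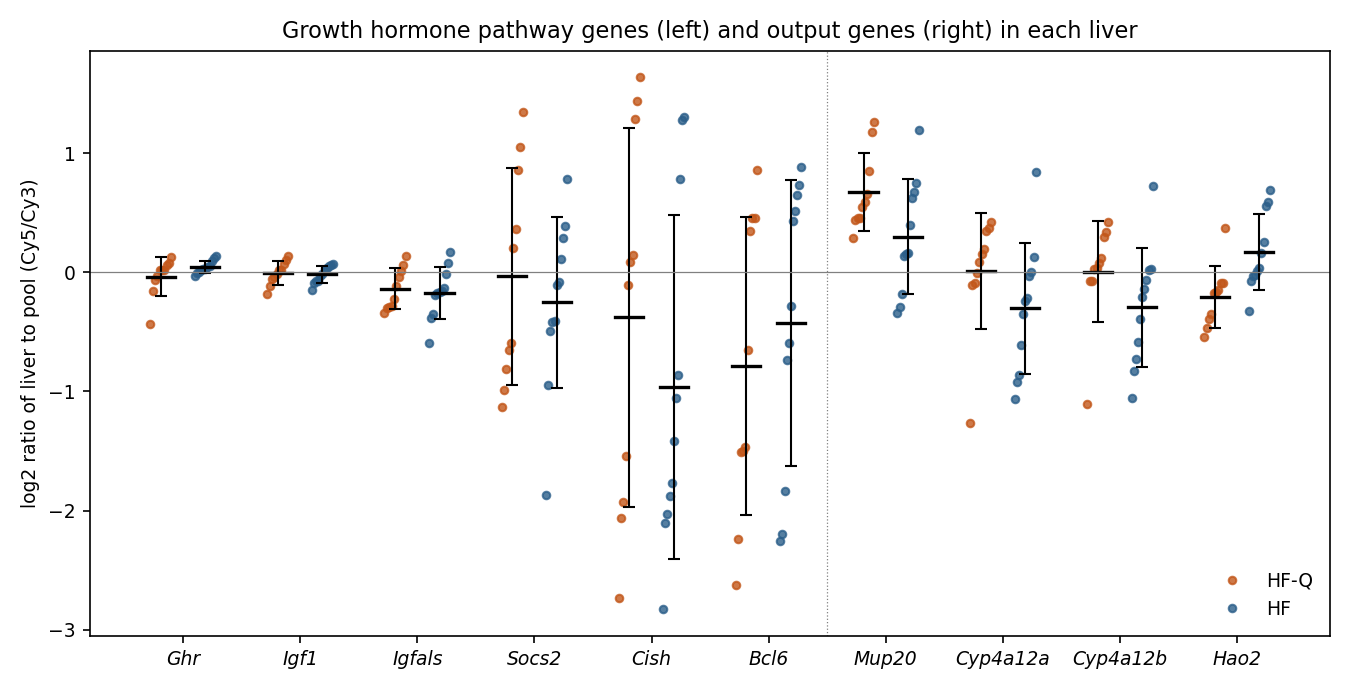
Log2 ratio of liver to pool (vertical axis) for the 6 pathway genes and the 4 output genes (horizontal axis), with HF-Q livers left of HF livers within each gene. Points are single livers, thick lines the group means and bars 1 SD (n = 10 HF-Q, 11 HF). Cish, Bcl6 and Socs2 spread widely in both groups, and Mup20 and Hao2 show the clearest offsets between groups.

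Mup20, the first of the output genes, encodes darcin, a major urinary protein that acts as a male scent signal. Its lowest, median and highest log2 ratios were 0.29, 0.57 and 1.26 in HF-Q livers and -0.34, 0.16 and 1.19 in HF livers. All 10 HF-Q livers lay above the HF median, but HF replicate 2 at 1.19 stood among the highest HF-Q livers. The log2 fold change was 0.37 ± 0.17 (SE; limma, p = 0.0332, adjusted p = 0.810). In the Cy5 channel alone it was 0.16. The second Mup20 probe, the one printed above, gave 0.26 ± 0.13 and followed the first at r = 0.76 over the livers. Major urinary protein genes are near-identical copies, so signal from other members on these probes cannot be told apart.

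Cyp4a12a and Cyp4a12b encode male-predominant fatty acid omega-hydroxylases of mouse liver. Cyp4a12a had a lowest, median and highest log2 ratio of -1.26, 0.12 and 0.42 in HF-Q livers and of -1.06, -0.24 and 0.84 in HF livers. Of the HF-Q livers, 9 of 10 lay above the HF median, the exception being HF-Q replicate 10 at -1.26. The highest value of all was that of HF replicate 2, at 0.84. The log2 fold change was 0.31 ± 0.21 (SE) for Cyp4a12a and 0.30 ± 0.18 for Cyp4a12b (limma, adjusted p = 0.940 and 0.923). The values of both genes correlated at r = 0.995 over the livers, and with a probe annotated to both transcripts they count as 1 measurement rather than 2.

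Hao2 encodes a peroxisomal oxidase of 2-hydroxy acids. It was dim, well above background on 3 of 10 HF-Q and 10 of 11 HF arrays, so it was kept through the HF livers and most HF-Q values lie near the floor. Its lowest, median and highest log2 ratios were -0.54, -0.17 and 0.37 in HF-Q livers and -0.32, 0.035 and 0.69 in HF livers. Only HF-Q replicate 10, at 0.37, lay above the HF median, and HF replicate 2, at -0.32, was the lowest HF liver. The log2 fold change was -0.37 ± 0.12 (SE; limma, p = 0.00426, adjusted p = 0.740). That value and its p describe a gene that the filter on signal kept because of its HF values. The size of the difference depended on how dim signal was handled, at -1.39 from the processed signals of the scanner software and -0.59 in the deposited log2 values.

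For Cyp4a12a, Cyp4a12b and Hao2, HF-Q replicate 10 lay among or beyond the HF livers and HF replicate 2 among or beyond the HF-Q livers. With both left out, a pair picked for such values, the log2 fold changes were 0.51 for Mup20, 0.57 for Cyp4a12a, 0.53 for Cyp4a12b and -0.49 for Hao2. None of the 10 genes passed the threshold even then (limma, lowest adjusted p = 0.0846, for Hao2), although 18 of all genes did. HF-Q replicate 10 also had the lowest mean over the hepatocyte markers, -0.22, with the next liver, HF replicate 1, at -0.022. Its mean over the listed genes of growth hormone receptor signalling, -0.23, was the lowest as well. The part of this in its other values was not tested.

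The output genes also differed between slides in how far the groups lay apart. On slides 1, 2 and 3 the log2 fold change was 0.55, 0.61 and 0.13 for Mup20, and -0.59, -0.47 and -0.20 for Hao2. For Cyp4a12a it was 0.68 and 0.75 on slides 1 and 2, and -0.13 on slide 3. For Cyp4a12b it was 0.61, 0.71 and -0.095. The difference between slides was not tested. With the slide as a block, the values over all livers were 0.40 for Mup20, 0.38 for Cyp4a12a, 0.36 for Cyp4a12b and -0.40 for Hao2, with adjusted p of 0.430 or above in limma. Among the pathway genes, Cish differed by 1.24, -0.069 and 0.87 on the slides in the same order and Bcl6 by -1.08, 0.43 and -0.52.

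**Figure D2:**
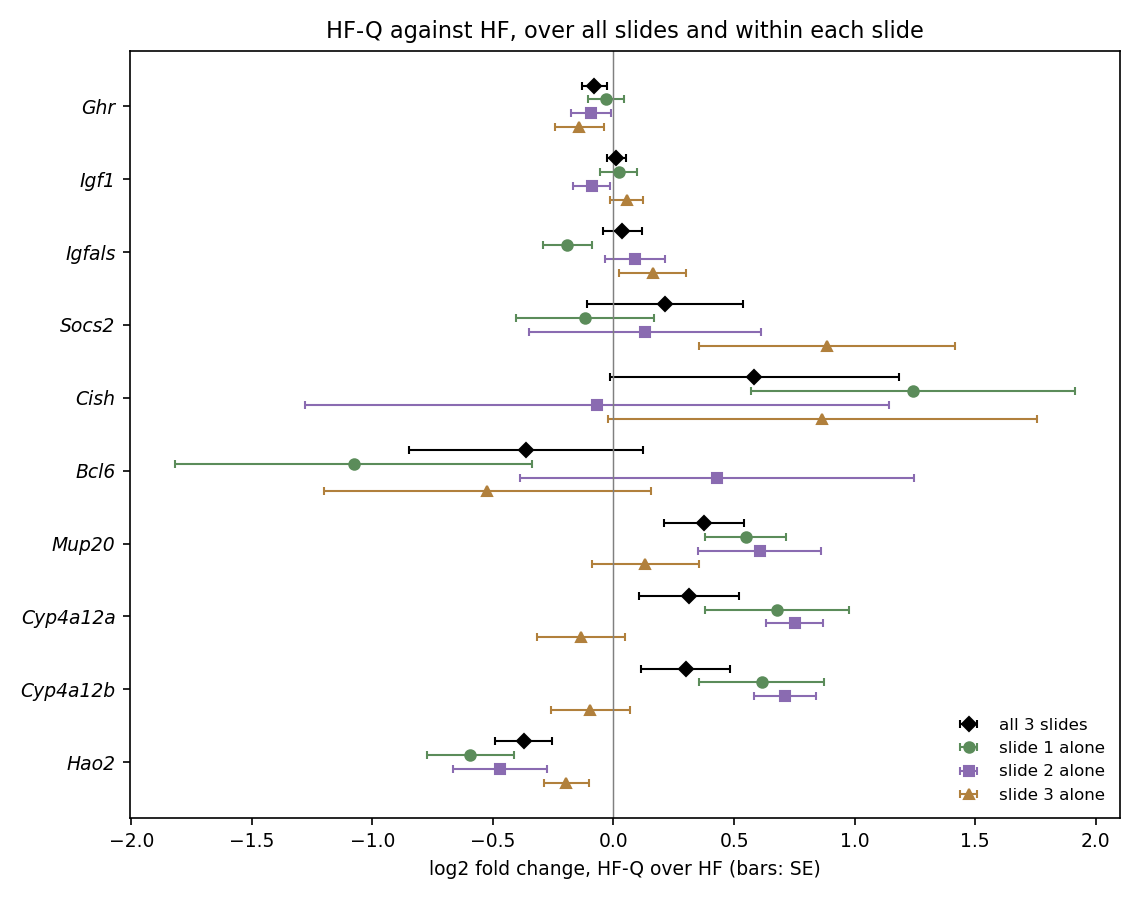
Log2 fold change of HF-Q over HF (horizontal axis) for each of the 10 genes (vertical axis), over all 3 slides (diamonds) and within slide 1, 2 and 3. Bars are SE. Hao2 lies left of 0 and Mup20 right of 0 on all 3 slides, and Cyp4a12a and Cyp4a12b change side on slide 3.

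The question of which genes varied together was asked over the 21 livers, for 21 pairs within the pathway or output genes and for 24 pairs of a pathway gene with an output gene. Each family was tested by permutation (100000 resamples, two-sided) with Benjamini-Hochberg adjustment within the family. Within the classes 11 of 21 pairs passed an adjusted p of 0.05, and 12 with Spearman's rho. Cyp4a12b repeats Cyp4a12a and enters 3 of the 11. With Cyp4a12b left out and the adjustment made again, 7 of 18 pairs passed, and 9 with Spearman's rho. These still include pairs of the dim gene Hao2. With Cyp4a12b and Hao2 left out, 6 of 16 pairs passed at the adjustment over all 21. Of the output genes only Mup20 with Cyp4a12a then remained. Over all genes on the arrays the median absolute r with a gene of the set was 0.14 to 0.22. Within the classes it was 0.50 over all 21 pairs, which include the high values of the repeated gene Cyp4a12b and the dim gene Hao2. Across the classes 0 of 24 pairs passed, with 3 at an unadjusted p under 0.05 (lowest adjusted p = 0.318). With Spearman's rho 0 of 24 passed as well, with 2 unadjusted (lowest adjusted p = 0.276).

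Among the pathway genes, Cish and Bcl6 were opposed. Pearson's r was -0.84 (permutation p = 2e-05, adjusted p = 1.57e-04) and Spearman's rho was -0.80 (adjusted p = 2.1e-04). Without the 2 livers farthest from the median of Cish, r was -0.85. It was -0.72 within HF-Q and -0.96 within HF livers, and -0.81, -0.95 and -0.81 within slides 1, 2 and 3. Of the 19229 other genes with a value on every array, Bcl6 was the one with the lowest r to Cish, and 0.062% of them had as large an absolute r with Cish.

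Single livers show the opposition. HF-Q replicate 1, with the highest Cish (1.64), had Bcl6 at -1.47, and HF replicate 9, with Cish at 1.30, had Bcl6 at -2.26. HF replicate 4, with the lowest Cish (-2.83), had Bcl6 at 0.65, and HF-Q replicate 2, with Cish at -2.73, had it at 0.46. The widest gap in Cish, 0.75 wide, lay between -0.86 and -0.10 and left 9 livers above it (6 HF-Q, 3 HF) and 12 below it (4 HF-Q, 8 HF). Below the gap Cish and Bcl6 correlated at r = -0.75, and above it at r = 0.52, or 0.34 without HF-Q replicate 10, which had the lowest Bcl6 (-2.63) at a Cish value of only -0.10. The split was made after the values were seen and narrows the range of Cish on each side. Above the gap the sign of r changed as well as its size, and the cause was not tested.

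Cish and Socs2 varied in the same direction over the livers, at r = 0.72 (permutation p = 3e-04, adjusted p = 0.0012) and rho = 0.73 (adjusted p = 0.0013). Without the 2 livers farthest from the median of Socs2, r was 0.70. It was 0.78 within HF-Q and 0.62 within HF livers, and 0.65, 0.71 and 0.75 within the slides. Of all genes, 0.218% had as large an absolute r with Cish. Socs2 and Bcl6 were opposed at r = -0.62 (permutation p = 0.00272, adjusted p = 0.00635; rho = -0.57, adjusted p = 0.0172). That value was -0.26, -0.54 and -0.88 within slides 1, 2 and 3.

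Igfals followed Cish more loosely, at r = 0.50 (permutation p = 0.0228, adjusted p = 0.0436; rho = 0.56, adjusted p = 0.0174). Within slides 1, 2 and 3 the value was -0.063, 0.81 and 0.81. The relation lost its place past the threshold when any of 12 of the 21 livers was left out in turn. Ghr and Igf1 correlated at r = 0.52 (permutation p = 0.0123, adjusted p = 0.0259), with rho = 0.35 (adjusted p = 0.184). The value was 0.065 without HF-Q replicates 5 and 7, the livers farthest from the median of Ghr. It also moved with the scaling, to 0.92 (adjusted p = 1.05e-04) with each array centred on its median in place of loess and to 0.70 in the Cy5 channel alone. The array of HF-Q replicate 7 also had the lowest share of probes above background, 44.2%, and the part of that in its Ghr value was not tested.

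**Figure D3:**
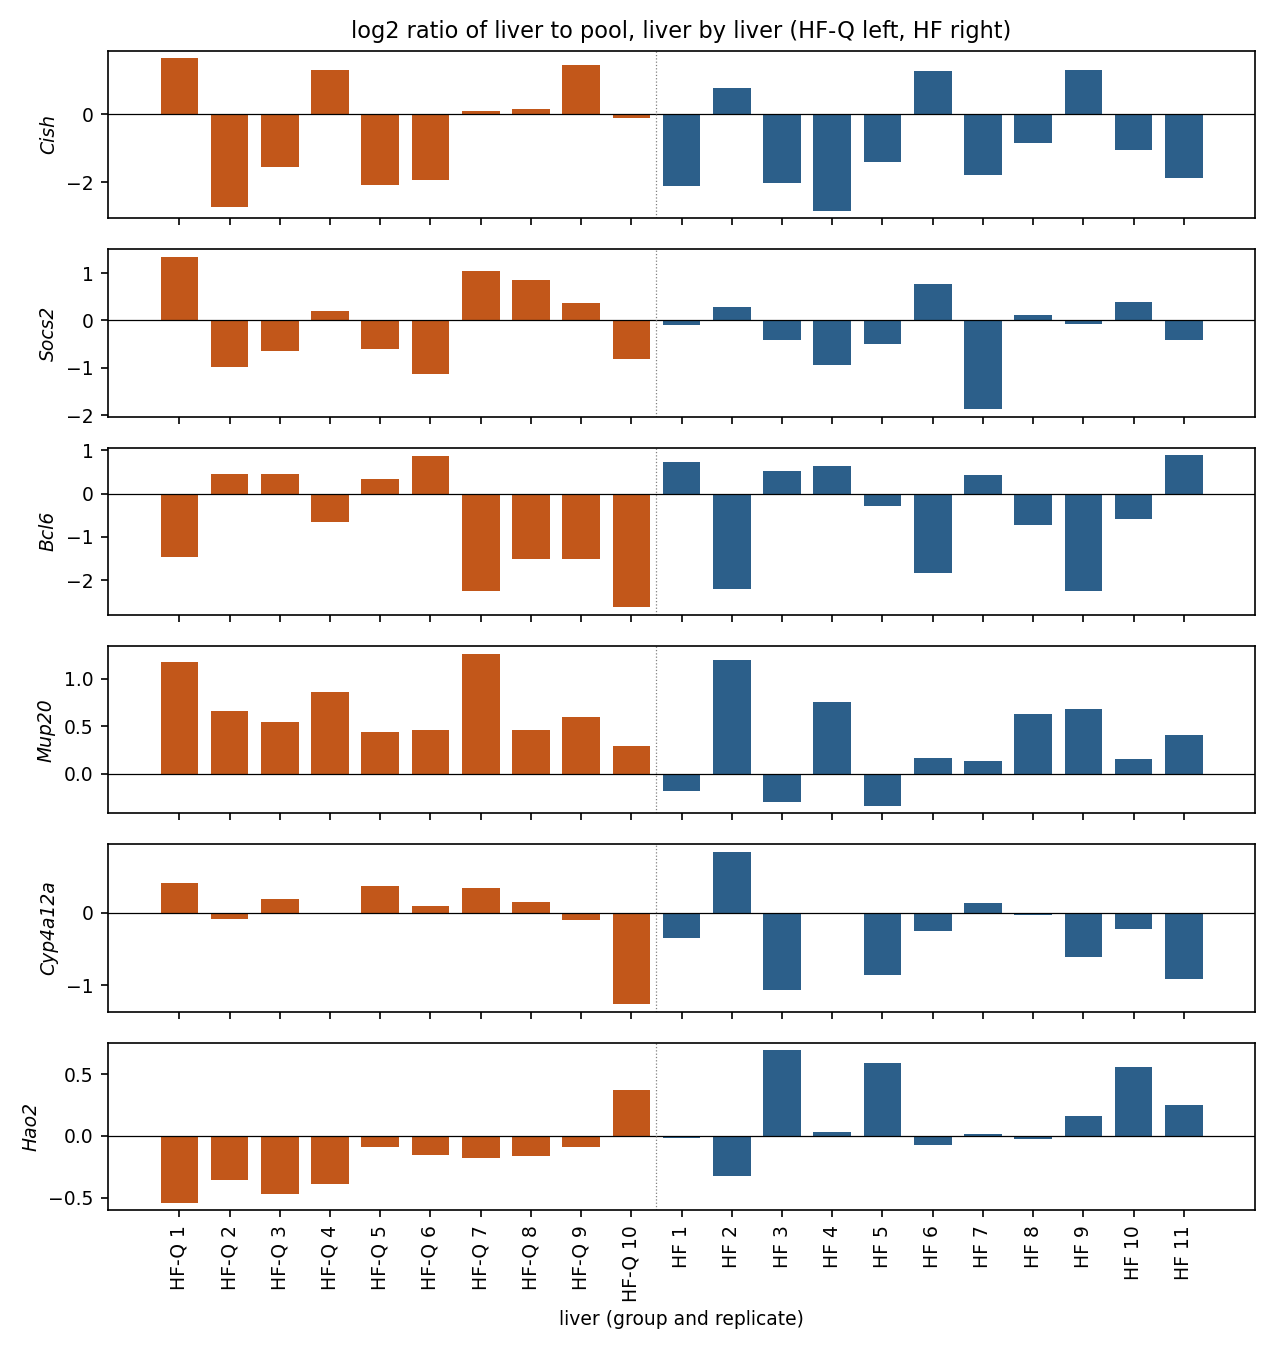
Log2 ratio of liver to pool (vertical axes, a scale of its own per gene) for Cish, Socs2, Bcl6, Mup20, Cyp4a12a and Hao2 in each liver (horizontal axis), with the 10 HF-Q livers left of the 11 HF livers. Bars start at 0, the level of the pool. Bcl6 is low in the livers with high Cish, and Hao2 is high in the livers with low Cyp4a12a.

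Among the output genes, Mup20 with Cyp4a12a was the pair that rested neither on dim signal nor on a repeated measurement. Mup20 correlated with Cyp4a12a at r = 0.67 (permutation p = 9.5e-04, adjusted p = 0.00249; rho = 0.60, adjusted p = 0.0111), and without the 2 livers farthest from its median at 0.60. Hao2 was opposed to Cyp4a12a at r = -0.78 (permutation p = 3e-05, adjusted p = 1.57e-04; rho = -0.78, adjusted p = 2.1e-04) and to Mup20 at r = -0.72 (permutation p = 3.5e-04, adjusted p = 0.0012; rho = -0.69, adjusted p = 0.00297). Without the 2 farthest livers these were -0.70 and -0.68. Of all genes, 0.146% had as large an absolute r with Cyp4a12a as Hao2. Hao2 was kept through the HF livers, and most of its HF-Q values lie near the floor. Its correlations and their p-values, over all livers and within HF-Q livers, are therefore a description and support nothing.

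The direction of the 3 relations was the same within both diets and all slides. For Cyp4a12a with Hao2, r was -0.76 within HF-Q and -0.78 within HF livers. The value within HF-Q rested on HF-Q replicate 10 and was -0.14 without it, whereas over all other livers it was -0.77. Within slides 1, 2 and 3 it was -0.90, -0.61 and -0.24. For Mup20 with Hao2, it was -0.57 within HF-Q (-0.42 without HF-Q replicate 10) and -0.67 within HF livers. For Mup20 with Cyp4a12a it was 0.53 within HF-Q (0.41 without that liver) and 0.68 within HF livers. With group and slide means removed, Mup20 with Cyp4a12a (r = 0.42) no longer passed the threshold. The values of the dim gene Hao2, a description only, were then -0.64 with Cyp4a12a and -0.47 with Mup20. In HF-Q replicate 10 Cyp4a12a was lowest of all livers and Hao2 was at 0.37, and in HF replicate 2 Cyp4a12a was highest and Hao2 was at -0.32.

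**Figure D4:**
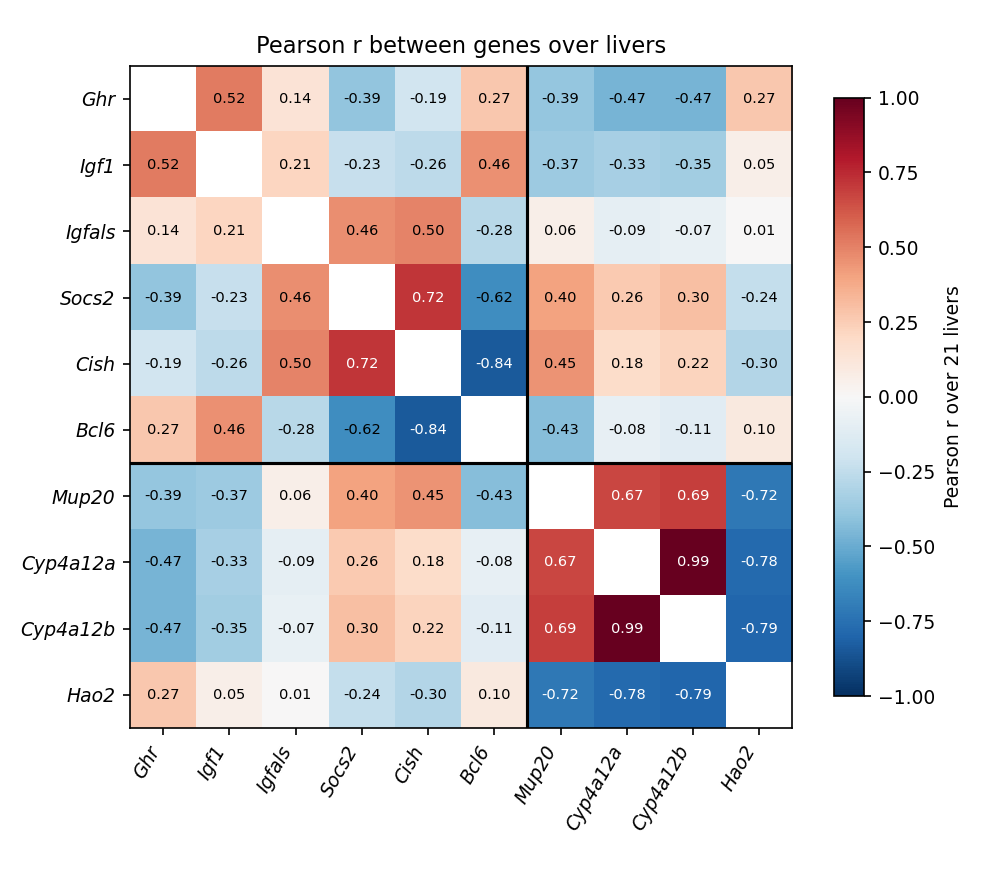
Pearson's r over the 21 livers between each pair of the 10 genes, from -1 (blue) to 1 (red), with black lines between the 6 pathway genes and the 4 output genes. Cyp4a12a with Cyp4a12b, which repeat each other, stand at 0.995. Apart from them, the values farthest from 0 are -0.84 for Cish with Bcl6, -0.79 for Cyp4a12b with Hao2 and -0.78 for Cyp4a12a with Hao2, and the values across the classes lie between -0.47 and 0.45.

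Across the classes the correlations were nearer 0, with r from -0.47 to 0.45 and a median absolute r of 0.27. Of the output genes Mup20 had the values farthest from 0 with Cish, Socs2 and Bcl6. It correlated with Cish at r = 0.45 (permutation p = 0.040, adjusted p = 0.318; rho = 0.40), with Socs2 at 0.40 (adjusted p = 0.342; rho = 0.34) and with Bcl6 at -0.43 (adjusted p = 0.318; rho = -0.38). Mup20 with Cish had r = 0.46 within HF-Q and 0.41 within HF livers, and 0.39, 0.65 and 0.46 within slides 1, 2 and 3. Of all genes, 8.80% had an absolute r with Mup20 as large as that of Cish.

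Cish correlated at r = 0.18 with Cyp4a12a and at r = -0.30 with Hao2 (adjusted p = 0.641 and 0.417), and Bcl6 with Hao2 at r = 0.095 (adjusted p = 0.850). HF-Q replicate 10, whose Bcl6 was the lowest of all livers, also had the lowest Cyp4a12a. Ghr and Cyp4a12a were opposed at r = -0.47 (permutation p = 0.034, adjusted p = 0.318; rho = -0.50), at -0.47 within HF-Q and -0.49 within HF livers. This value depended on the scaling: it was 0.17 with each array centred on its median in place of loess, and -0.69 (adjusted p = 0.0115) in the Cy5 channel alone. With 21 livers a weak relation between the classes may go undetected, so these values do not show that the classes varied independently.

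**Figure D5:**
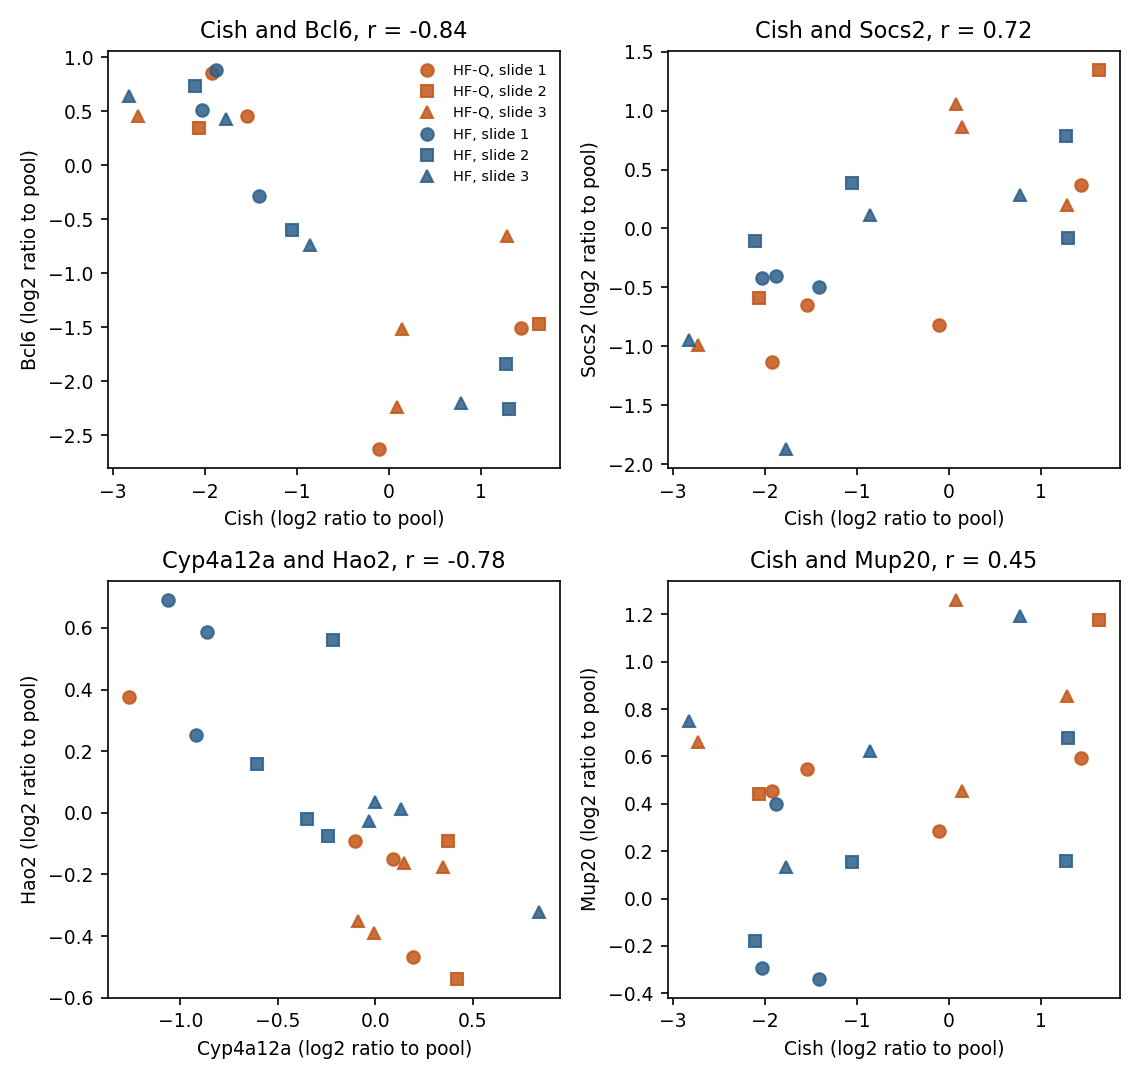
Log2 ratios to the pool of 2 genes per panel, 1 point per liver, for Cish with Bcl6, Cish with Socs2, Cyp4a12a with Hao2 and Cish with Mup20. Colour marks the diet (HF-Q listed before HF) and shape the slide. In the first panel the livers low in Cish fall along a descending line and those high in Cish lie together at low Bcl6, whereas Cish with Mup20 (r = 0.45) is diffuse.

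Socs2 was compared over the 21 livers with the other 19229 genes with a value on every array. The most similar genes with a symbol were E2f8 (r = 0.91), Lurap1l (0.86) and Arhgap29 (0.85). The most opposed with a symbol were Stn1 (-0.77), Hps6 (-0.76) and Dgka (-0.76). Cish stood at rank 21 from the top of all 19229. For Mup20 the most similar genes with a symbol were Cd248 (0.94), Klhl32 (0.93) and Cib3 (0.86), and the most opposed were Cyp2b10 (-0.83), Tcn2 (-0.82) and Gstt1 (-0.82). These are descriptions over livers that share slides and a common pool.

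The rest of the pathway gave few differences between the diets. Of 14 listed genes of growth hormone receptor signalling all were measured, 6 higher and 8 lower in HF-Q livers, and 0 passed an unadjusted p of 0.05 in limma (median log2 fold change -0.028). Jak2, the receptor's kinase, differed by 0.0082 ± 0.039 (SE), Stat5a by -0.018 ± 0.10 and Stat5b by 0.020 ± 0.089. Those of lowest p were Ptpn1, a phosphatase that acts on JAK2 (-0.063 ± 0.057), and the inhibitors Socs3 (0.18 ± 0.18) and Socs1 (0.070 ± 0.073).

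Of the IGF axis 9 of 13 genes were measured. Among them 2 were on the higher side at an unadjusted p under 0.05, Igfbp2 (0.27 ± 0.12, SE) and Igfbp7 (0.11 ± 0.044), and 1 on the lower side, Igfbp5 (-0.20 ± 0.089). These are secreted binding proteins of the IGF family, and none passed after adjustment (limma, adjusted p of 0.790 or above). Of all genes tested, 3.02% were on the higher side and 2.91% on the lower side at an unadjusted p under 0.05. Of 10 listed transcription factors of sex-biased liver expression 9 were measured, and 0 passed an unadjusted p of 0.05 (median 0.0023).

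Other sex-biased liver genes were counted in the same way. Of 18 measured male-biased genes 13 were higher and 5 lower in HF-Q livers, with a median log2 fold change of 0.11, against -0.0043 over all genes, of which 47.0% were higher. At an unadjusted p under 0.05, 1 of the 18 was on the higher side, Cspg5 (0.41 ± 0.16, SE), and 0 on the lower side. The shares over all genes tested were 3.02% and 2.91%. The complement genes C8b and C6 and the oxysterol hydroxylase Cyp7b1, next in order of p, had values of 0.26 ± 0.14, 0.25 ± 0.13 and 0.24 ± 0.14. The measured major urinary protein genes of this list did not show the difference of Mup20. Mup2 had 0.084 ± 0.16, Mup3 -0.037 ± 0.073 and Mup21 -0.11 ± 0.11. Of 16 measured female-biased genes all 16 were lower in HF-Q livers, with a median of -0.23. The 16 include genes kept through the group in which they were higher, and the 12 that were well above background on all 21 arrays were lower as well. The 3 at an unadjusted p under 0.05, against 2.91% of all genes on the lower side, were Cyp2b10, Cyp2b13 and Cyp2b9. They are P450 genes that also respond to the xenobiotic receptor CAR. Cyp2b13 was well above background on 1 HF-Q and 10 HF arrays and Cyp2b9 on 2 HF-Q and 10 HF arrays, so their p is a description, as for Hao2. Cyp2a4 had -0.47 ± 0.25. None passed after adjustment (limma, adjusted p of 0.515 or above), and since the lists were chosen with earlier results known, these counts are a description.

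The same 2 livers stood out in these lists. The mean log2 ratio over the male-biased list was 0.49 in HF replicate 2, the highest of all livers, and -0.33 in HF-Q replicate 10, level with the lowest HF liver. The mean over the female-biased list was -0.69 in HF replicate 2, the lowest of all livers, and 0.19 in HF-Q replicate 10, the only HF-Q liver above 0.

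Marker lists of other cell types showed no difference between the diets at an unadjusted p under 0.05 (0 of 29 measured genes in 6 lists in limma). Over the livers, the mean of the stellate cell markers correlated with Socs2 at r = -0.52 and that of the cholangiocyte markers with Cish at -0.48. The mean of the lymphocyte markers correlated with Igfals at -0.51 and that of the pancreatic acinar markers with Igfals at 0.53. These were picked as the values farthest from 0 over the 6 lists and all genes of the set. Over all single genes, the 95th percentile of absolute r was 0.48 with Socs2, 0.47 with Cish and 0.56 with Igfals. The acinar mean also correlated with the output genes, at r = -0.42 with Cyp4a12a, -0.40 with Cyp4a12b and 0.38 with Hao2. The 95th percentiles for these genes were larger, at 0.57, 0.58 and 0.57. All 5 acinar markers measured were lower in HF-Q livers (median log2 fold change -0.42). The acinar mean lay between -0.82 and -0.13 in HF-Q livers and between -0.91 and 2.13 in HF livers, where replicates 5 and 11 stood at 1.53 and 2.13. In those livers Cyp4a12a was at -0.86 and -0.92 and Hao2 at 0.59 and 0.25. Cyp4a12a was lower still in HF-Q replicate 10 (-1.26) and HF replicate 3 (-1.06), with Hao2 at 0.37 and 0.69. The acinar means of those livers were only -0.73 and -0.79. The stellate mean lay between -0.18 and 0.064 in HF-Q livers and between -0.21 and 0.13 in HF livers. The cholangiocyte mean lay between -0.23 and 0.13 in HF-Q livers and between -0.18 and 0.35 in HF livers, and the lymphocyte mean between -0.11 and 0.070 in HF-Q livers and between -0.18 and 0.16 in HF livers. The part of these cells in the values of Socs2, Cish, Igfals and the output genes was not tested.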

How the data were processed

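The livers were measured on 2-colour Agilent arrays. The authors deposited the scanner output, whose mean and background spot intensity values are not normalized, per the file headers; its processed intensity columns had background subtracted and dyes normalized. Per the submitters' processing notes, the software was Agilent Feature Extraction 10.7.3.1. A second deposited file holds log2 values and served only as an alternative. Its columns correlated with the Cy5 signal at r = 0.985 to 0.999, every median was 7.92, and the sources used here do not give the step behind that.

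In limma 3.58.1 (R 4.3.3) the background was corrected with normexp (offset 50) and within-array loess was applied to log2 Cy5 over Cy3. Control spots (3671 of 62976) and spots marked as outlying were given no weight and left out, and repeated spots were averaged per probe. The Cy5 signal had to exceed background clearly on at least 10 of 21 arrays for a probe to be kept (26291 of 55681), and the brightest kept probe stood for a gene. The offset draws ratios of dim genes toward 0. HF-Q was compared with HF by lmFit and eBayes, two-sided, over all 19718 genes with Benjamini-Hochberg adjustment and a threshold of 0.05. Intervals of 95% used 19 degrees of freedom. Each mouse gave 1 array, the number of arrays limits the precision, and p-values measure the spread between these mice.

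Correlations and figures were made in Python 3.11.15 with numpy 2.4.6 and matplotlib 3.10.9. The tests were tested on simulated data. Gene names were updated through RefSeq accessions (GRCm38.p6) for 27235 probes, coordinates of probes were taken from the array files, and promoter windows for 6 of the 10 genes came from RefSeq.

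The 10 genes and all lists were chosen with earlier results of these data known. Besides the 10 genes, up to 4 genes of lowest p per list are named. The 3 most similar and 3 most opposed genes with a symbol for Socs2 and for Mup20 are named as well. Jak2, Stat5a, Stat5b, Mup2, Mup3 and Mup21 were added after their values were seen. Replicate numbers shared by the groups were not taken as pairs of mice. Deviations of same-numbered livers correlated at r = -0.34 to 0.16, which cannot exclude a weak pairing.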

Additional observations from a re-analysis of the deposited data

Results flagged for a closer look

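In each gene's 10 HF-Q livers, the highest and lowest values were compared with their nearest neighbours by Dixon's test. The critical limits used here ended at groups of 10, so the 11 HF livers were not examined. Of 10 groups tested, 4 held a value beyond the 95% critical limit, and chance alone gives about 1 in 20, but the 2 Cyp4a12 genes share a probe annotation and count as 1. Ghr stood at -0.44 in HF-Q replicate 7, with the next HF-Q liver at -0.16. Cyp4a12a stood at -1.26 in HF-Q replicate 10, with the next at -0.10, and Cyp4a12b at -1.10, with the next at -0.076. Hao2 stood at 0.37 in the same liver, with the next at -0.090. Most HF-Q values of Hao2 lie near the floor, so its entry in the count is a description only. The causes were not tested.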

How the results depend on the processing

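None of the 10 genes passed the threshold in HF-Q against HF under any of 17 alternative settings or with any liver left out, though Hao2 was too dim to be tested where signal above background was required on all arrays. The number of all genes past it was 0, but 1 with array weights, 1 on slide 2 alone and 18 without both HF-Q replicate 10 and HF replicate 2; with 1 liver left out it was 0 to 4, the liver being HF-Q replicate 10 where 1 gene passed and HF replicate 2 where 4 did. With the replicate number as a block it stayed 0, and the log2 fold changes of Mup20 and Hao2 were 0.39 and -0.36. Log2 fold changes changed sign within single slides: Igfals (-0.19) and Socs2 (-0.12) on slide 1, Igf1 (-0.090), Cish (-0.069) and Bcl6 (0.43) on slide 2, and Cyp4a12a (-0.13) and Cyp4a12b (-0.095) on slide 3. With 1 liver left out Igf1 lay between -0.0048 and 0.030, Igfals between -0.0053 and 0.071, and r of Bcl6 and Hao2 between -0.0042 and 0.22. Pairs past the threshold within the classes numbered 11, but 1 within HF-Q, 4 within HF livers, and 1, 0 and 1 within slides 1, 2 and 3, where fewer livers enter, and 7 with Cyp4a12b left out. Pairs across the classes numbered 0, but 2 in the Cy5 channel alone, among them Ghr with Cyp4a12a. In that count Cyp4a12b, which repeats Cyp4a12a, entered as a gene of its own. Correlations changed sign for Bcl6 with Hao2 (-0.14 with group and slide means removed, -0.45 within HF-Q, -0.14 on slide 1), Cish with Cyp4a12a (-0.035 within HF-Q, -0.089 on slide 2), Igfals with Cish (-0.063) and Ghr with Igf1 (-0.093) on slide 1, and Ghr with Cyp4a12a under median centring (0.17). On the sides of the gap in Cish, a split chosen after seeing the data that narrows the range of Cish by construction, they changed sign for Cish with Bcl6 (0.52, or 0.34 without HF-Q replicate 10) and Socs2 with Bcl6 (0.38 and 0.016) above it and for Cish with Mup20 (-0.24) below it. The cause was not tested. Dim signal limits Hao2.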
